A study of Homo sapiens with 2 samples.

Results

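The Aurora kinases and the chromosomal passenger complex were examined in PC3 cells, an established prostate cancer line derived from a bone metastasis, after knockdown of SUB1, a nuclear single-stranded DNA binding protein and transcriptional coactivator. The members are 8 genes: the kinases AURKA, AURKB and AURKC, the passenger subunits BIRC5, CDCA8 and INCENP, the Aurora A activator TPX2 and the Aurora A interacting protein AURKAIP1. They were taken by name from the 30482 entries on the array, some of which carry a probe name only, and all 8 were among the 19218 entries, called genes here, whose probes passed the filter on dim spots. Messenger RNA was compared on 2 dual-colour Agilent whole genome arrays of 1 slide. The first array set cells treated with SUB1 siRNA 1 (Cy5) against cells treated with non-targeting (Non-T) siRNA (Cy3), and the second set SUB1 siRNA 2 (Cy5) against Non-T siRNA (Cy3). Every culture was transfected, transfected again 24 h later and harvested 72 h after the first transfection, so that the control cells also carried a duplex and the transfection reagent.

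Aurora A works at the centrosomes and spindle poles, where TPX2 binds it, holds it on microtubules and switches on its activity. Aurora B is the enzyme of the chromosomal passenger complex, in which INCENP is the scaffold and activator and survivin (BIRC5) and borealin (CDCA8) bring the complex to the inner centromere. There the kinase releases faulty attachments between kinetochores and microtubules, and after anaphase onset the complex moves to the spindle midzone and helps to complete cytokinesis. Aurora C is a close relative of Aurora B that acts mainly in germ cells and early embryos. In cycling cells the messages of AURKA, AURKB, BIRC5, CDCA8 and TPX2 build up towards G2 and mitosis, and in carcinomas, prostate cancer included, these genes are often highly expressed.

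With siRNA 2, AURKA, BIRC5, CDCA8 and TPX2 fell at least 2-fold, to between 33.5% and 49.4% of the Non-T level, though with median centring in place of loess AURKA and BIRC5 were inside the 2-fold line. With siRNA 1 these 4 genes were between 50.4% and 61.5% of the control, inside the 2-fold line. AURKB and INCENP were lower on both arrays, at 55.0% to 69.4% of the control. AURKAIP1 was near the control on both arrays after loess, but had log2 ratios of 0.46 and 0.37 with median centring. The AURKC probe was not well above background in the control channel. None of the 8 members passed an adjusted p of 0.05 in limma, a linear model with moderated variances fitted to all genes kept.

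The stretches upstream of some members are shown because most members had lower ratios on both arrays. Late cell cycle promoters are known for 2 short elements near their start, the CCAAT box, bound by NF-Y, and the cell cycle genes homology region (CHR), bound by the DREAM and MMB complexes. Promoter windows from RefSeq (GRCh38.p14) were at hand for 5 of the 8 members, and AURKA, BIRC5 and TPX2 are named only. The letters searched for on both strands of the 250 bases before the start were CCAAT for the first element, and TTTGAA or TTCGAA for the second. Below are the 150 bases before the start of 3 genes with lower ratios and of AURKAIP1, 5′ to 3′ on the gene's own strand, with every match in capitals.
CDCA8, plus strand, chr1:37692366-37692515: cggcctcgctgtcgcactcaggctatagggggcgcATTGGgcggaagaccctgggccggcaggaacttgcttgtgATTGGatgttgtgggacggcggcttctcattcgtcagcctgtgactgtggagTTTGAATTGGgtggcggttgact
INCENP, plus strand, chr11:62123861-62124010: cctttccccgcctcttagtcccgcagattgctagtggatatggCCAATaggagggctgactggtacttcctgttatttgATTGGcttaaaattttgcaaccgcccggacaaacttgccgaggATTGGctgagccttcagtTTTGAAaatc
AURKB, minus strand, chr17:8210250-8210399: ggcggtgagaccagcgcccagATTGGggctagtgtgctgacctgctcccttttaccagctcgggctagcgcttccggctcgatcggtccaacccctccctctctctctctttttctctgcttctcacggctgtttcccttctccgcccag
AURKAIP1, minus strand, chr1:1375208-1375357: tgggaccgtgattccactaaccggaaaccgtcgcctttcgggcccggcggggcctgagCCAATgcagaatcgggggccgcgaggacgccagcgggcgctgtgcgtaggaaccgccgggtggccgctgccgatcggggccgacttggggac

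Counting the base just before the start as -1, TTTGAA lay at -23 to -18 in CDCA8 and at -10 to -5 in INCENP, and neither CHR form was found in the 250 bases of AURKB, AURKC or AURKAIP1. In CDCA8 its last base is the first base of an ATTGG, so that these matches share a letter. CDCA8 and INCENP each held 3 matches to CCAAT or its complement ATTGG, and AURKB held 1, in the windows of both of its annotated starts, of which the more upstream is shown. All 5 members had at least 1 such match, AURKAIP1 and AURKC included. Over all 35116 windows of the same length, 14.3% held a CHR match and 32.0% a CCAAT match. Among 10512 genes kept on the array with a window these shares were 13.8% and 41.8%, and among 17 other G2/M genes they were 64.7% and 94.1%. A match is a string of letters and not a measured binding site.

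SUB1 itself was at 10.2% of the control with siRNA 1 and at 10.4% with siRNA 2 by its brightest of 4 probes. Another of them was at 28.6% and 33.8%. SUB1 was the 1 gene of 19218 with an adjusted p under 0.05 in limma (adjusted p = 0.0248). Without background correction, with processed signals, with median centring or with the authors' ratios, no gene passed that mark, SUB1 included. Each array held 43376 gene spots for 41000 probes, with a median signal of 114 to 128 scanner units in Cy3 and 105 to 116 in Cy5. Between 54.3% and 67.2% of gene spots were well above background in a given channel and none was saturated. Among 209 probes printed 10 times on an array, the median SD between spots was 0.078 on the first array and 0.074 on the second, on the log2 ratio scale. These SDs cover printing and scanning only. In the Non-T channel the epithelial markers KRT8, KRT18, KRT19, EPCAM, CDH1 and CD44 were well above background on both arrays, while TMPRSS2, PTPRC, COL3A1 and VWF were not, with CD68, COL1A1 and PECAM1 above it at 134 to 384 units. Of 3 probes for KLK3, which PC3 is known to lack, 1 gave 15436 to 18634 units and the other 2 were not well above background.

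The 2 arrays are 1 comparison for each duplex and not replicates of either, and the dyes were not swapped, so that for any probe the knockdown and a preference for either dye cannot be told apart. Both comparisons use Non-T cells as the control, and the sources used here do not say whether both arrays carried the same extract. The limma test therefore takes the duplexes as 2 knockdowns of SUB1, asks whether their mean log2 ratio differs from 0, and leaves out the spread of the control. In bulk RNA, fewer cells in late G2 and mitosis and less message in each such cell cannot be told apart.

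AURKA, the spindle pole kinase, was read by 1 probe for NM_198433 at chr20:54378527-54378586 (build hg18, the build of the array design, minus strand). On the siRNA 1 array its spot gave 985 units for Non-T and 718 for the knockdown. On the siRNA 2 array it gave 947 for Non-T and 553 for the knockdown. In these unadjusted signals the knockdown spots were below both control spots, and the lower of them was that of siRNA 2. The siRNA 2 array was dimmer as a whole, with a median Cy5 signal of 105 against 116 units. After loess, which removes the trend of the dye ratio with brightness on each array, the log2 ratios were -0.70 and -1.02, that is 61.5% and 49.4% of the control. AURKA was 342nd and 195th from the lowest of the 19218 genes. Between the arrays its ratio differed by -0.32. After scaling between arrays, the control channel of the siRNA 2 array stood at 0.19 against that of the siRNA 1 array. The knockdown channel stood at -0.13, so the larger part of the difference lay in the control channel. Probes of like brightness printed 10 times had a spot SD of 0.069 and 0.072. The mean of both arrays was -0.86 (SE 0.12, 95% interval -1.18 to -0.54) with a limma adjusted p of 0.112. With siRNA 2 AURKA passed the 2-fold line by little, and its ratio was -0.80 when loess was replaced by centring on the array median.

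AURKB, the kinase of the passenger complex, was read at chr17:8051380-8051642 (hg18, minus strand, NM_004217), a span of 263 bases where most member probes span 60, so that the probe joins sequence from more than 1 exon. Its spot gave 225 units for Non-T against 144 with siRNA 1, and 193 for Non-T against 109 with siRNA 2. The Cy5 values are the lower ones, but so are the negative control spots in that dye, at a median of 61 to 63 units against 79 to 86 in Cy3, so that the order of the unadjusted signals of dim probes is not read. The log2 ratios were -0.66 and -0.86 (63.1% and 55.0% of the control), with a mean of -0.76 (SE 0.11) and a limma adjusted p of 0.112. AURKB was a dim probe. With the scanner software's own processed signals the ratios were -1.04 and -1.59, whereas without background correction they were -0.63 and -0.80.

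AURKC, the germ cell member of the family, gave 95.03 units for Non-T and 87.7 for siRNA 1, and 102 for Non-T and 78.6 for siRNA 2 (chr19:62435754-62435813, hg18, plus strand, NM_001015878). In Cy3 the spot was not well above background on either array, and in Cy5 it was on both. No fold is given for that reason. Its ratios were 0.11 and -0.091, and neither sign can be read. They enter the counts and medians over 8 members below, which are also given for the 6 members other than AURKC and AURKAIP1. Under other processings the siRNA 1 ratio ran from 0.011 to 1.59, and the siRNA 2 ratio from -0.65 to -0.091.

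**Figure D1:**
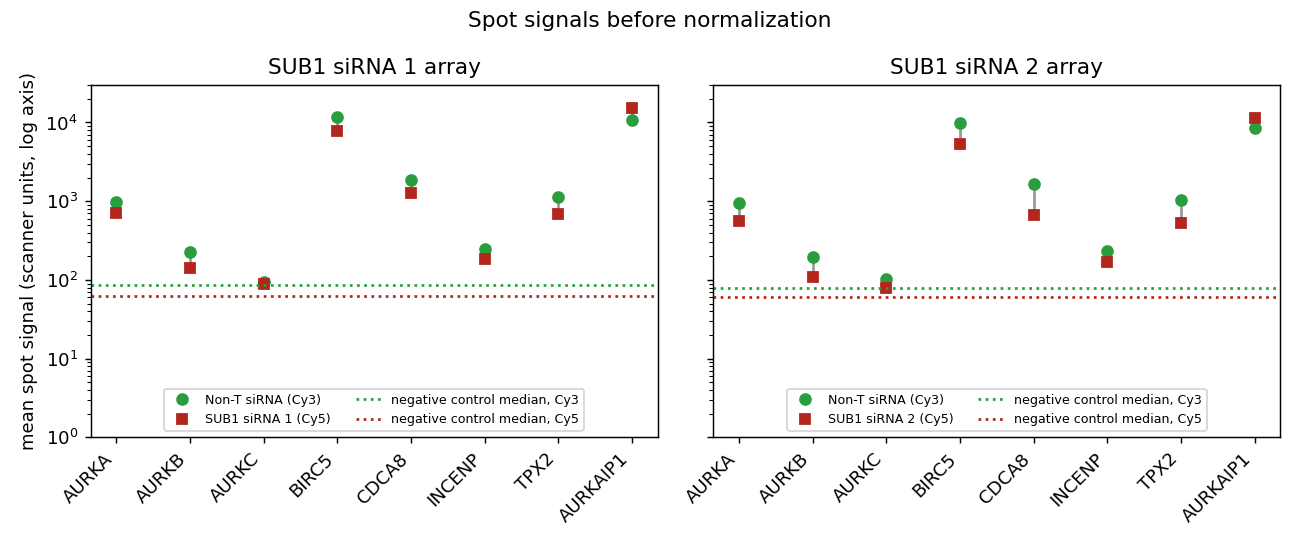
Mean spot signal of each member before normalization (scanner units, log axis) on the siRNA 1 array (left) and the siRNA 2 array (right), with Non-T siRNA in Cy3 as circles, SUB1 siRNA in Cy5 as squares and the median of 153 negative control spots of each dye as dotted lines. The 6 genes AURKA, AURKB, BIRC5, CDCA8, INCENP and TPX2 have the knockdown below the control on both arrays, an order that the dotted lines of the dyes share, AURKC lies by those lines, and AURKAIP1 has the knockdown channel above the control before loess. Heights of different probes are not comparable.

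BIRC5 encodes survivin, the subunit that reads a phosphorylated histone at the inner centromere and that is also classed with the inhibitors of apoptosis. Its probe (NM_001012271, chr17:73732315-73732374, hg18, plus strand) was printed 10 times on each array, the only member with repeat spots. The mean signals were 11862 units for Non-T and 7850 for siRNA 1, and 9809 for Non-T and 5389 for siRNA 2. On the siRNA 1 array 9 spots were used, with log2 ratios from -1.06 to -0.89 and a mean of -0.99 ± 0.060 (SD between spots). On the siRNA 2 array 10 spots ran from -1.37 to -1.06 with a mean of -1.25 ± 0.084. All spots used on the second array thus lay below those used on the first, by a narrow margin. With median centring the siRNA 2 ratio was -0.92. As reported, the message was left at 50.4% and 41.9% of the control, 124th and 88th from the lowest of all genes. The mean of both arrays was -1.12 (SE 0.11, 95% interval -1.42 to -0.82), with a limma adjusted p of 0.112.

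CDCA8 encodes borealin, which binds survivin and INCENP in a helical bundle and helps to target them to chromatin. The spot (NM_018101, chr1:37947736-37947795, hg18, plus strand) gave 1849 units for Non-T and 1261 for siRNA 1, and 1632 for Non-T and 669 for siRNA 2. The siRNA 2 spot stands far below the other 3. The log2 ratios were -0.83 and -1.58, or 56.1% and 33.5% of the control. With siRNA 2 CDCA8 was 36th from the lowest of all genes and the lowest of the members, whereas with siRNA 1 BIRC5 and TPX2 had lower ratios. Between the arrays the ratio differed by -0.74. After scaling between arrays, the knockdown channel of the siRNA 2 array stood at -0.69 against that of the siRNA 1 array, and the control channel at 0.048. The spread between the duplexes gives CDCA8 the widest interval of the members, with a mean of -1.21 (SE 0.20, 95% interval -1.74 to -0.67) and a limma adjusted p of 0.113.

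INCENP, the scaffold that binds and activates Aurora B, was the least reduced of the passenger subunits. Its spot (NM_020238, chr11:61676318-61676377, hg18, plus strand) gave 246 units for Non-T and 182 for siRNA 1, and 230.4 for Non-T and 169 for siRNA 2. This probe is dim as well, and only its normalized ratios are read. The log2 ratios of -0.55 and -0.53 left 68.1% and 69.4% of the control. The mean was -0.54 (SE 0.095, 95% interval -0.79 to -0.29) with a limma adjusted p of 0.118. INCENP was also the 1 member whose ratio was not lower with siRNA 2 than with siRNA 1, with a difference of 0.026.

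TPX2, which carries Aurora A on spindle microtubules and keeps it active, was read at chr20:29852634-29852693 (NM_012112, hg18, plus strand). Its spot gave 1140.3 units for Non-T and 696 for siRNA 1, and 1032 for Non-T and 524 for siRNA 2. Both knockdown spots were well below both control spots. The log2 ratios were -0.96 and -1.23, leaving 51.4% and 42.7% of the control, 135th and 100th from the lowest of all genes. The mean was -1.09 (SE 0.11, 95% interval -1.40 to -0.79) with a limma adjusted p of 0.112. On both arrays the ratio of TPX2 was next to that of BIRC5 among the members.

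AURKAIP1 binds Aurora A and has been linked to its breakdown, and the protein is also a component of the mitochondrial ribosome. Its probe lies at chr1:1299133-1299289 (NM_017900, hg18, minus strand), a span of 157 bases. The spot gave 10717 units for Non-T and 15359.9 for siRNA 1, and 8573 for Non-T and 11483 for siRNA 2. The knockdown channel was thus brighter in the unadjusted signals of both arrays, and loess took most of the gap away. The log2 ratios were 0.11 and 0.0031, with a mean of 0.055 (95% interval -0.20 to 0.31) and a limma adjusted p of 0.776. Median centring in place of loess gave 0.46 and 0.37, and the scanner software's processed signals gave -0.017 and -0.070, so that no direction is given for AURKAIP1.

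**Figure D2:**
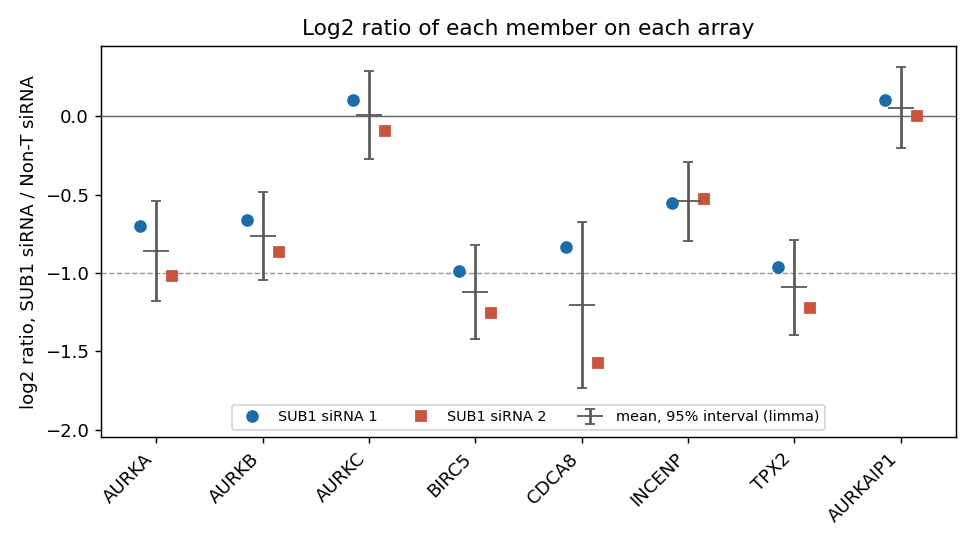
Each member's log2 ratio (knockdown over Non-T) on each array (circles for siRNA 1, squares for siRNA 2), with the mean of both and its 95% interval from limma in grey. The dashed line marks a 2-fold decrease. Only squares lie under it, those of AURKA, BIRC5, CDCA8 and TPX2, and the CDCA8 points stand 0.74 apart.

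Counted as a group, 0 of 8 members were at least 2-fold lower with siRNA 1, where 0.609% of all genes were, and 4 of 8 with siRNA 2, where 1.07% of all genes were. With median centring the siRNA 2 count was 2, CDCA8 and TPX2, and with the scanner software's processed signals it was 5. In the reported values no member was at least 2-fold higher, against 0.208% and 0.614% of all genes. Log2 ratios below 0 were found in 6 members with siRNA 1 and in 7 with siRNA 2, against 45.9% and 46.4% of all genes. The seventh with siRNA 2 is AURKC, and without AURKC and AURKAIP1 the counts were 6 of 6 with each duplex. The median log2 ratio of the members was -0.68 with siRNA 1 and -0.94 with siRNA 2, while the median of all genes was 0.024 on both arrays. Without AURKC and AURKAIP1 the medians were -0.77 and -1.12. In limma 0 of 8 members had an adjusted p under 0.05, a mark that 0.0052% of all genes passed on the lower side. At an unadjusted limma p under 0.05 there were 6 members on the lower side and none on the higher, against 9.91% of all genes on the lower side and 11% on the higher.

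The siRNA 1 ratios of BIRC5 and TPX2 came close to the 2-fold line without reaching it, at -0.99 and -0.96, and AURKA was just past it with siRNA 2 at -1.02. The count on each array therefore turns on small steps. Between the duplexes, 7 of 8 members had a lower ratio with siRNA 2, with a median difference of -0.23. Without AURKC and AURKAIP1 these were 5 of 6, with a median difference of -0.27. Over all genes 50.4% had a lower ratio with siRNA 2, with a median difference of -0.0021. As each duplex was on 1 array, the difference between them was not tested.

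**Figure D3:**
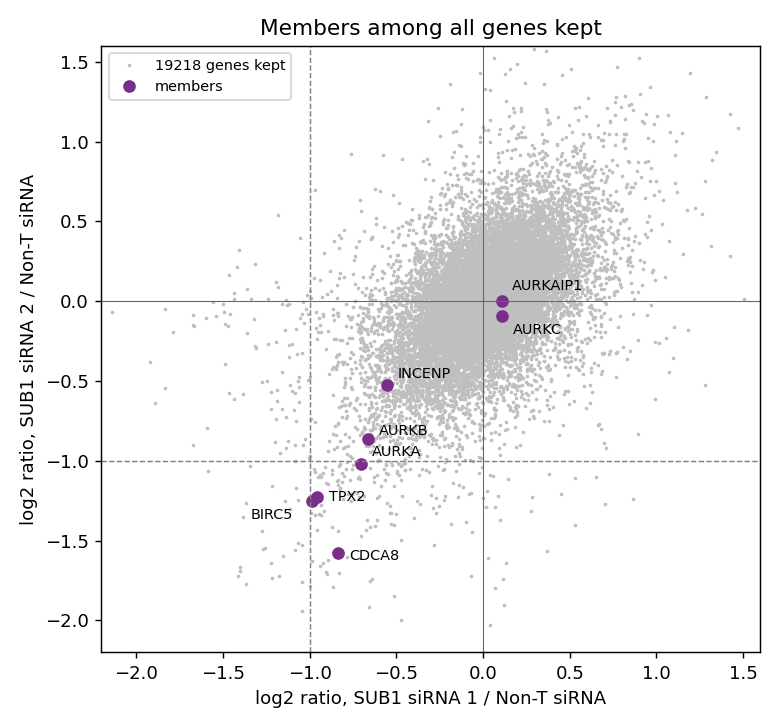
Log2 ratio with siRNA 1 (x axis) and siRNA 2 (y axis) for the 19218 genes kept (grey) and the 8 members (purple), with dashed lines at a 2-fold decrease. A group of 6 members lies in the lower left, between -0.99 and -0.55 on the x axis and between -1.58 and -0.53 on the y axis with AURKC and AURKAIP1 in the main cloud. Both axes have Non-T cells as the control, each axis with the Cy3 channel of its own array, and 19 genes lie outside the frame.

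The wider Aurora and mitotic pathway was described by lists of genes written from general knowledge. The counts in these lists stand against the shares over all genes. At least 2-fold lower were 0.609% of all genes with siRNA 1 and 1.07% with siRNA 2. At an unadjusted limma p under 0.05, 9.91% of all genes were on the lower side and 11% on the higher. Among 16 regulators and partners of Aurora A, 2 were at least 2-fold lower with each duplex, PLK1 and HMMR, with medians over the list of -0.37 and -0.43. PLK1, the polo kinase that Aurora A activates with the help of BORA, had log2 ratios of -1.41 and -1.72. HMMR, a spindle protein that helps to place TPX2, had -1.40 and -1.69, and KIF11, the kinesin that pushes spindle poles apart, had -0.68 and -0.74. In limma 9 of the 16 had an unadjusted p under 0.05 on the lower side, 0 on the higher side, and 0 an adjusted p under 0.05.

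Of 16 genes that place or release the passenger complex, 2 were at least 2-fold lower with siRNA 1 and 6 with siRNA 2, with medians of -0.13 and -0.50. The first of these medians turned to 0.096 with median centring. The mitotic kinase CDK1 had log2 ratios of -1.04 and -1.76 and its partner cyclin B1 (CCNB1) -1.08 and -1.002. BUB1, which marks the centromeric histone that the complex follows, had -0.97 and -1.07. In limma 7 had an unadjusted p under 0.05 on the lower side and 1 on the higher side, and none passed after adjustment.

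Among 14 substrates of Aurora B, 1 was at least 2-fold lower with siRNA 1 and 5 with siRNA 2, with medians of -0.58 and -0.84. KIF23, a kinesin of the spindle midzone, had log2 ratios of -1.22 and -1.64. The checkpoint kinase BUB1B had -0.94 and -1.34, and the centromeric histone CENPA -0.97 and -1.05. On this list 12 of 14 had an unadjusted limma p under 0.05 on the lower side and none on the higher side, again with none past adjustment.

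The anaphase promoting complex and its partners mark Aurora kinases and cyclins for breakdown at the end of mitosis. Of 9 such genes, 0 were at least 2-fold lower with siRNA 1 and 2 with siRNA 2, with medians of -0.15 and -0.084, which turned to 0.051 and 0.11 with median centring. The 2 were UBE2C, a ubiquitin conjugating enzyme (-0.96 and -1.43), and CDC20, an activator of the complex (-0.93 and -1.21). UBE2S, which extends the ubiquitin chains, had -0.78 and -0.72. They are the 3 of the 9 with an unadjusted limma p under 0.05 on the lower side.

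Survivin shares a domain with the inhibitors of apoptosis, so 10 genes of that family, its antagonists and its caspase targets were read beside it. None was 2-fold lower or higher on either array, and the median log2 ratio was 0.17 with each duplex. BIRC7 (livin) had 0.42 and 0.39, BIRC3 (cIAP2) 0.53 and 0.26, and XIAP, the direct caspase inhibitor, 0.24 and 0.24. In limma 2 of the 10 had an unadjusted p under 0.05, both on the higher side, where 11% of all genes were, and none passed after adjustment. BIRC5 itself stood at -0.99 and -1.25.

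Other late cell cycle genes were read beside the members. Of 18 such G2/M genes, 6 were at least 2-fold lower with siRNA 1 and 10 with siRNA 2, with medians of -0.82 and -1.06 and all 18 below 0 on both arrays. PBK, a mitotic kinase, had log2 ratios of -1.36 and -1.77. The spindle checkpoint protein MAD2L1 had -1.40 and -1.67, and cyclin B2 (CCNB2) -1.21 and -1.74. At an unadjusted limma p under 0.05, 17 of 18 were on the lower side.

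Genes of G1 and S phase, which act before the passenger complex forms, were read as well. Of 18 such genes, 2 were at least 2-fold lower with siRNA 1 and 6 with siRNA 2, with medians of -0.39 and -0.91. Thymidine kinase (TK1) had log2 ratios of -1.09 and -1.56, the ribonucleotide reductase subunit RRM2 -1.14 and -1.25, and the replication licensing factor CDT1 -0.97 and -1.34. At an unadjusted limma p under 0.05, 13 of 18 were on the lower side.

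A set of 12 housekeeping genes, often used as references, had median log2 ratios of -0.16 and -0.099, which turned to 0.12 and 0.28 with median centring. ACTB, a cytoskeletal actin, had log2 ratios of 0.75 and 0.37, and the ribosomal protein RPLP0 -0.44 and -0.55. With siRNA 1 none of the 12 was at least 2-fold lower, and with siRNA 2 the count was 1. In limma 4 of the 12 had an unadjusted p under 0.05 on the lower side and 1 on the higher side. Over all genes these shares were 9.91% and 11%.

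**Figure D4:**
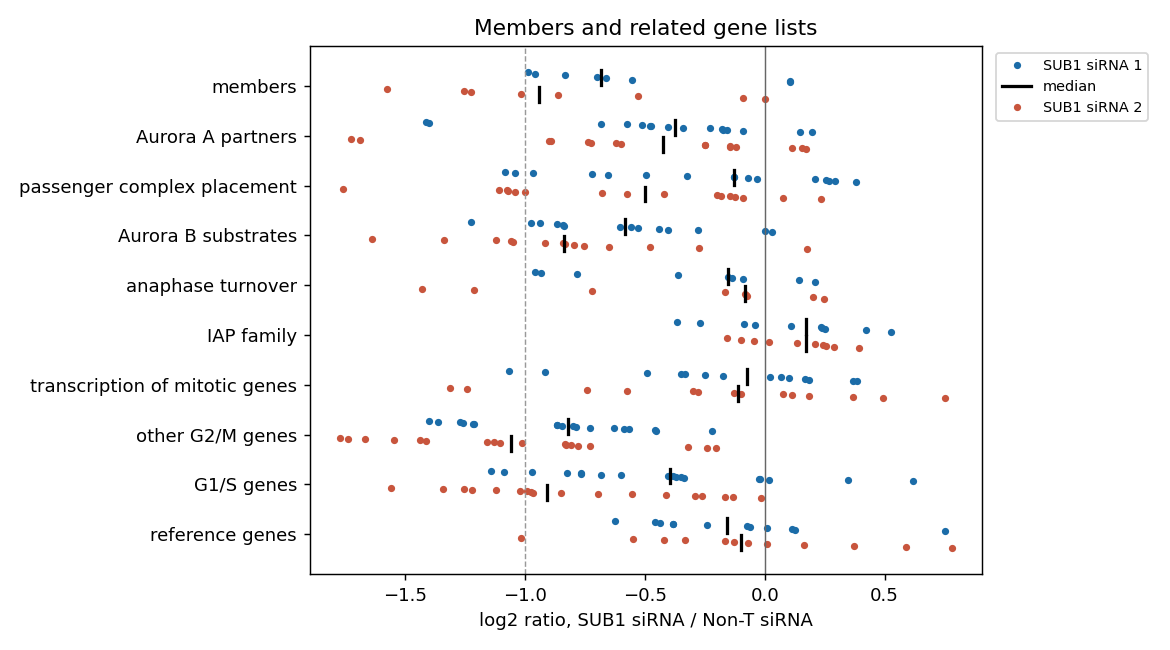
Log2 ratio of every gene of each list, with siRNA 1 in blue above siRNA 2 in red and the median of each as a black bar. The solid line marks no change and the dashed line a 2-fold decrease. The medians of the members (-0.68 and -0.94) lie between those of the Aurora B substrates (-0.58 and -0.84) and of the other G2/M genes (-0.82 and -1.06), and those of the IAP family lie to the right of 0.

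How far each member moved under other processings of the same spots was also read. AURKA, AURKB, BIRC5, CDCA8, INCENP and TPX2 had ratios below 0 on both arrays in the reported values and in all 9 alternatives. CDCA8 with siRNA 2 ran from -1.69 to -1.34, and TPX2 with siRNA 2 from -1.31 to -1.01, so that these 2 values stayed past the 2-fold line throughout. AURKA with siRNA 2 ran from -1.07 to -0.80 and BIRC5 with siRNA 2 from -1.26 to -0.92, across that line. INCENP did not reach the line in any of them, with a range of -0.74 to -0.44 for siRNA 1 and of -0.79 to -0.42 for siRNA 2.

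**Figure D5:**
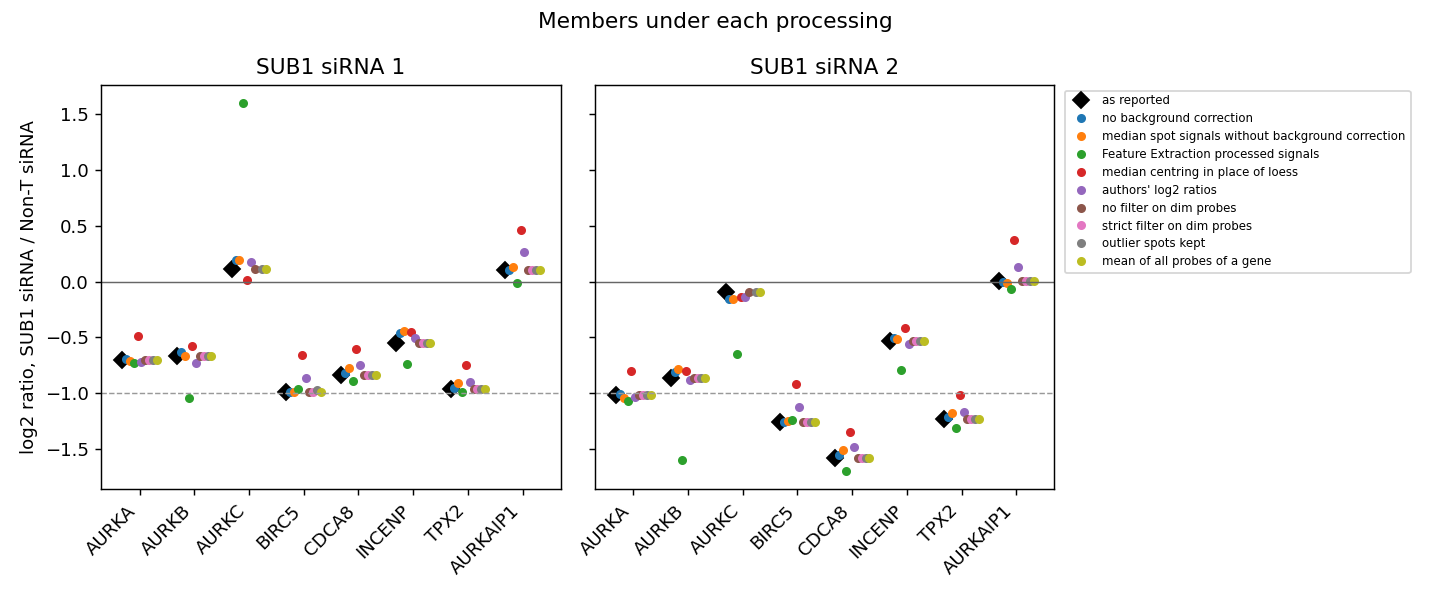
Log2 ratio of each member on each array as reported (black diamonds) and under 9 other processings (coloured circles). The dashed line marks a 2-fold decrease. The widest spread is that of AURKC with siRNA 1, from 0.011 to 1.59. AURKB has its own lowest value on each array with the scanner software's processed signals, at -1.04 and -1.59.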

How the data were processed

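The authors deposited 1 scanner file an array (Agilent Feature Extraction 9.5.1.1), whose spot signals are intensity values, and a table of normalized log2 ratios that the authors made after loess (package agilp, per the study's methods). Setting that table against the scanner files (Pearson 0.958 and 0.970) gave its direction, knockdown over control, and a slope near 1, so it is on the log2 scale. Its column medians were -0.0054 and -0.0068.

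Mean spot signals were background corrected (normexp, offset 50) and loess normalized within each array in limma 3.58.1 (R 4.3.3). Control spots had no weight in the loess, outlier spots (112 and 100) were left out, and repeat spots were averaged by probe. Probes were kept where, on each array, a share of 0.5 or more of their spots was flagged well above background in either channel, and the brightest probe stood for a gene. Every gene kept was fitted with lmFit and eBayes on the mean ratio, with Benjamini-Hochberg adjustment over 19218 genes. The code was tested on simulated data.

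Genes were named from RefSeq by accession (11892) or symbol (1237), and 6089 kept the file's name. Probes whose file name matched an old alias of AURKB or AURKAIP1 but whose accession is that of another gene were left out. The members and lists were chosen with earlier results of these data known. Named in the text are all members, SUB1, the 3 genes of each list with the largest mean ratio in size, and the 5 genes nearest to the members' medians, except that some genes these rules pick are not reported here. Alternatives were no or other background correction, processed signals, median centring, the authors' ratios, 2 other filters, outliers kept, and the mean of a gene's probes. With 1 array a duplex and no statement on separate cultures, p-values rest only on spread between these 2 arrays. The moderation draws each gene's own spread towards a value shared by all genes.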

Additional observations from a re-analysis of the deposited data

How the results depend on the processing

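Of 48 recomputed values of the counts and medians over the members, 41 stayed within 1.5 times (counts) or within the median SD between spots (medians), 7 moved by more and 0 reversed. With the scanner software's processed signals, 1 member (AURKB, -1.04) was at least 2-fold lower with siRNA 1, and 5 were with siRNA 2, AURKB (-1.59) included. The medians were then -0.81 and -1.15. With median centring in place of loess, 2 members (CDCA8 and TPX2) were at least 2-fold lower with siRNA 2, and the medians were -0.53 and -0.80. At an unadjusted limma p under 0.05 there were then 7 members, on either side of 0, against 6 in the reported values. Under that setting the median of all genes was 0.13 and 0.12, against 0.024 after loess. With the strict filter, which drops AURKC, the median with siRNA 2 was -1.02. The cause of the other shifts was not tested. No member passed an adjusted limma p of 0.05 under any of the 9 alternatives, and the lowest adjusted p of a member ran from 0.058 without a filter to 0.17 with the authors' ratios. Processed signals raised the share of all genes at least 2-fold lower to 1.55% and 2.45%. Of 304 recomputed values of single members and lists, 236 stayed within the SD between spots, 68 moved and 0 of those past 2-fold reversed. List medians that changed sign did so with median centring: those of the passenger complex placement list with siRNA 1, and of the anaphase, transcription and housekeeping lists with both duplexes, all given beside those lists.

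Each log2 ratio already pairs knockdown with control RNA on 1 array, and with 1 array a duplex no further pairing was possible. Leaving out an array leaves no residual spread, and both lay on 1 slide, so slide was no block. Signal over background limits AURKC most and AURKB and INCENP next.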

Other observations

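Regulators of the transcription of late cell cycle genes, activators and repressors alike, were read as well. Of 16 listed genes, 14 passed the filter on dim spots. FOXM1, which activates G2/M genes, had log2 ratios of -1.07 and -1.24 with siRNA 1 and siRNA 2. MYBL2, the B-Myb subunit of the activating MMB complex, had -0.92 and -1.31, and E2F4, a subunit of the repressing DREAM complex, -0.49 and -0.74. The list's medians were -0.075 and -0.11, which turned to 0.090 and 0.024 with median centring in place of loess, with 1 gene at least 2-fold lower with siRNA 1 and 2 with siRNA 2. In limma 5 had an unadjusted p under 0.05 on the lower side and 3 on the higher side. Over all genes these shares were 9.91% and 11%. None of the list passed after adjustment.

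By Euclidean distance over the 2 arrays, genes among the 5 nearest to the members' pair of medians were the linker histone H1-3 (-0.67 and -0.91), LOC387867 (-0.65 and -0.91), the nuclear pore subunit NUP37 (-0.64 and -0.94) and the myosin light chain MYL10 (-0.67 and -0.90), at distances of 0.036 to 0.044.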
